A study of Rattus norvegicus with 3 samples.

Results

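Genes for voltage-gated sodium channels and for the proteins that hold them at the node of Ranvier were followed in the rat vestibular nuclei after loss of the labyrinth on 1 side. The group held 9 genes chosen by name, namely the sodium channel alpha subunits Scn1a, Scn2a, Scn3a, Scn4a and Scn8a, the beta subunits Scn2b and Scn3b, and the adhesion proteins Nfasc and Cntnap1. Through the RefSeq accession of each probe, all 9 were found, on 10 of 41012 probes and among 8899 named genes. Scn2a had 2 probes and every other member 1, and each probe lay on 1 spot. The study compared 3 Agilent 1-colour arrays of Sprague-Dawley rats, which were adult males of 200 to 250 g. The first array held the vestibular nuclei of controls, labelled as sham-operated, although the protocol text calls those animals normal. The left labyrinth was removed in the other animals, and the nuclei of that side were taken after 1 day for the second array and after 7 days for the third. Per the labels, tissue of 3 rats was taken per group because 1 animal gave too little RNA, so each group was 1 array of what appears to be pooled RNA. The age of the animals and the side taken from controls were not given in the sources used here. No array was replicated, and no test between groups was possible. All values below describe differences between 2 arrays.

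Voltage-gated sodium channels open when a neuron is depolarized and carry the rising phase of the action potential. An alpha subunit forms the pore, and beta subunits adjust its gating and tie it to the cell surface and to neighbouring proteins. In myelinated axons the channels are packed at the axon initial segment and at the nodes of Ranvier, the gaps between stretches of myelin, where neurofascin, ankyrin G and beta IV spectrin anchor them. At the paranode beside each gap, contactin and the Cntnap1 product on the axon join the glial form of neurofascin on the myelin loop. Neurons of the vestibular nuclei fire at high rates at rest, and their balance between the sides is disturbed when the input of 1 labyrinth is lost.

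The level of a probe is given as its intensity with the error that the scanner software attached to that spot, and on the log2 scale relative to the 75th percentile of its array. On the sham array that percentile stood at an intensity of 5692, on the day 1 array at 5242 and on the day 7 array at 5676. The error of a spot covers the scanner's measurement and not animals, dissections or labelling. A difference is called past 2-fold when it reached 1 log2 unit in either direction, provided that the probe was neither saturated nor near background on the arrays compared. Probes of the same gene often disagreed. For 1139 genes with a second measured probe, the day 1 folds of the brightest pair lay a median of 0.34 log2 units apart, with a 90th percentile of 1.29. All 11 neuronal markers with a probe were well above background on every array. Of 3 cerebellar markers with a probe, Gabra6 was not well above background on any array, Neurod1 was so in sham only, and Calb1 was on all 3. Their summed level, in units of the 75th percentile, was 2.18, 2.65 and 3.62, nearly all of it from the brightest Calb1 probe. At day 7 that probe had a log2 fold of 0.75 against sham, but the other Calb1 probes were at -0.07, 0.12 and -0.39. The rise of the sum at day 7 thus rests on 1 probe. All 3 arrays shared 1 slide, each at a position of its own, so position and group cannot be told apart.

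At day 1 the measured members were within 2-fold of sham with 1 exception. At day 7 all of them but Cntnap1 lay further from sham than at day 1, in both directions. At day 1 against sham, 1 of 8 measured members was past 2-fold (Nfasc, lower), while 12.6% of 6292 named genes were past 2-fold in either direction and 4.37% were lower and 8.26% higher. At day 7 against sham, 3 of 9 were past 2-fold, with Nfasc and Scn8a lower and Scn4a higher, beside 16.9% of 6261 named genes in either direction, 5.73% lower and 11.1% higher. Between the arrays after surgery, day 7 against day 1, 1 of 8 was past 2-fold (Scn3a, higher), beside 11.9% of 6142 named genes either way, 6.56% higher and 5.32% lower. Of all measured probes, named or not, 11.5% were past 2-fold at day 1 (7.64% higher, 3.85% lower), 16.5% at day 7 (10.8% higher, 5.7% lower) and 11.9% between the days (6.35% higher, 5.57% lower). Among 8 or 9 genes the shares of all named genes come to 1 or 2 genes, so the members' counts lie near this background. Of all named genes past 2-fold, higher genes made up 65.4% at day 1 and 53.6% without scaling between arrays, 66.0% at day 7 and 55.1% under cyclic loess, and 55.2% between the days and 66.0% without scaling. The median log2 fold over the measured members was -0.09 at day 1 and -0.04 at day 7 against sham and -0.23 between the days, and over all named genes it was 0.00, 0.05 and 0.04. Both comparisons with sham rest on the same sham array.

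**Figure D1:**
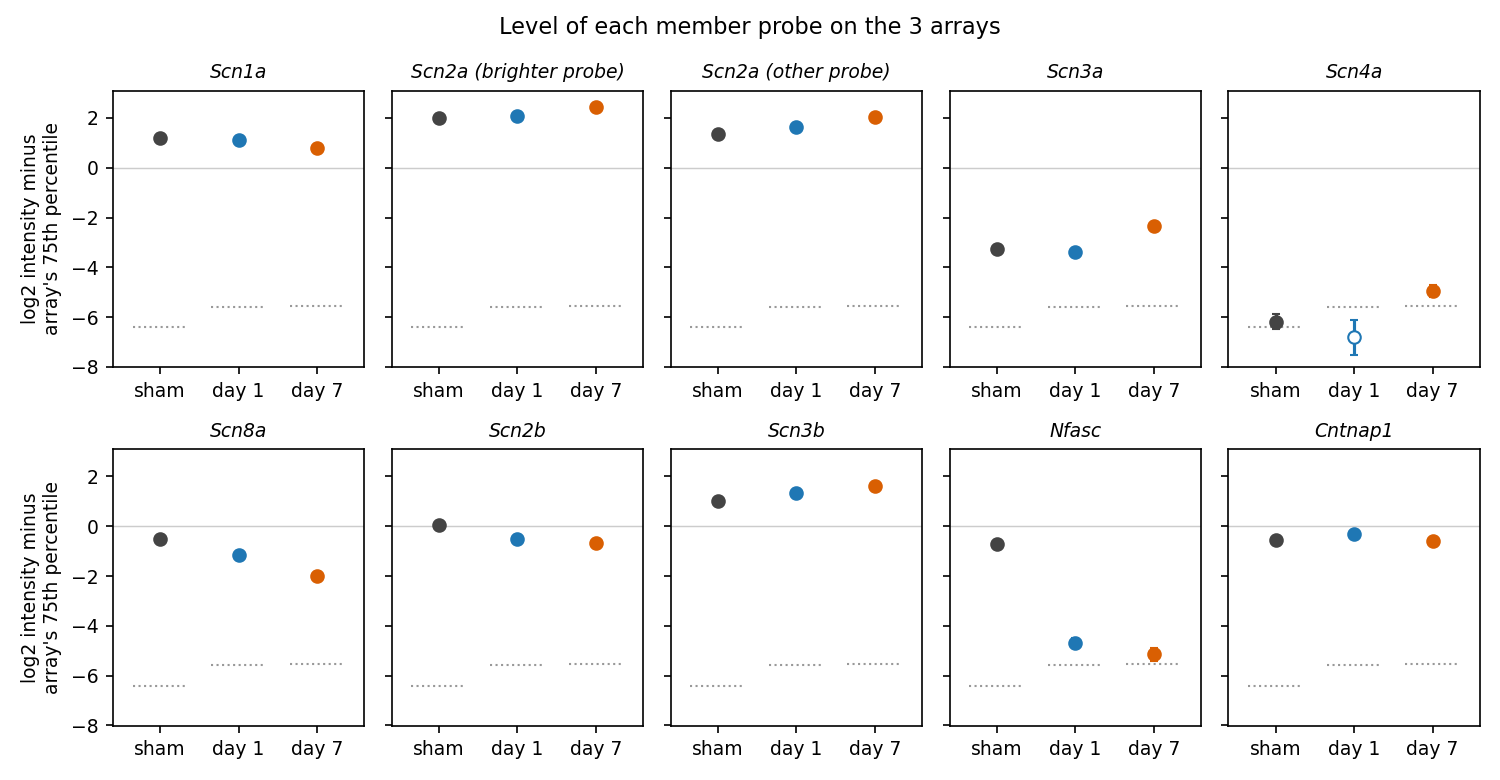
Level of each of the 10 member probes on the sham, day 1 and day 7 arrays (x axis), as log2 intensity minus the 75th percentile of the array (y axis). Bars are the scanner software's error for the spot, open points were not well above background, and dotted lines mark the lowest signal well above background on that array. Nfasc was lower on both arrays after surgery, Scn8a was lowest at day 7, and Scn3a and Scn4a were highest at day 7.

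The largest difference among the members was in Nfasc, which encodes neurofascin, the adhesion molecule that gathers sodium channels at the node and the initial segment in its neuronal form and joins the paranode in its glial form. Its probe A_44_P196467, designed on the transcript NM_053909, read 3431 ± 343 in sham, 202.6 ± 29.9 at day 1 and 160.3 ± 29.2 at day 7. Both arrays after surgery were thus far below sham and close to each other. The probe stayed well above background on all 3 arrays, although the lowest signals so classed were 109.0 at day 1 and 121.6 at day 7. The log2 fold against sham was -3.96 at day 1 (15.6-fold lower, scanner error 0.26) and -4.42 at day 7 (21.3-fold lower, scanner error 0.30). Of the named genes measured, 3 were at least as low as this at day 1 and 6 at day 7, Nfasc included. Genes that fell below the background limit after surgery are not in this ranking. Fgf11 is such a gene, at least 32.6-fold lower at day 1 and at least 31.7-fold lower at day 7. Across 6 other ways of scaling, background correction and spot selection the fold lay between -4.08 and -3.46 at day 1 and between -4.58 and -3.69 at day 7. The raw median brightness of the spot had the same order, at 3757, 324.5 and 289.0, over local backgrounds of 48.0, 61.0 and 50.0. Around it on the slide, 21 measured spots had a median log2 fold of 0.10 at day 1 and -0.29 at day 7, and the lowest of them were at -1.20 and -1.12. No other Nfasc probe was named, and the part of the transcript that this probe reads was not given in the sources used here, so the neuronal and glial forms cannot be told apart.

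Cntnap1, whose product Caspr forms the axonal side of the paranodal junction, did not follow Nfasc. It read 3859 ± 386 in sham, 4188 ± 420 at day 1 and 3736 ± 375 at day 7. Day 1 was highest, and all 3 values lay within 2-fold of one another. The log2 folds against sham were 0.24 at day 1 and -0.04 at day 7, each with a scanner error of 0.20, so the day 1 value just exceeded its error, and the day 7 value was 0.005 with the 75th percentile taken over probes well above background on all 3 arrays. The other proteins that meet neurofascin at these junctions are described with the remaining genes below.

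Scn8a encodes the main alpha subunit of mature nodes and of the initial segment, and with Nfasc it was 1 of the 2 members at least 2-fold lower at day 7. It read 3955 ± 396 in sham, 2361 ± 238 at day 1 and 1432 ± 147 at day 7. The values do not overlap within their scanner errors, and day 7 was lowest. The log2 fold was -0.63 at day 1, short of 2-fold, and -1.46 at day 7 (2.75-fold lower), with a scanner error of 0.20 and 0.21. On the day 7 array 166 of 6261 named genes were at least as low. Under the same 6 alternatives the fold ran from -0.74 to -0.57 at day 1 and from -1.51 to -1.27 at day 7, so neither the direction nor the side of the 2-fold line changed. The spots around it had median log2 folds of 0.02 at day 1 and -0.03 at day 7. The lowest of them were at -0.72 and -1.36, so at day 1 a neighbouring spot was lower than Scn8a itself.

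Some markers of neurons and of myelin were also lower on the day 7 array. Of 10 measured neuronal markers, 3 were at least 2-fold lower at day 7 (Nefh, Nefm and Nefl, the neurofilament subunits of large axons) and none at day 1, beside the 5.73% and 4.37% of all named genes on that side. At day 7, 7 of the 10 were below sham and 3 above it, with Snap25, a protein of synaptic release, at 0.47. The summed level of the 11 with a probe, which includes Eno2 although it was saturated on all 3 arrays, in units of the array's 75th percentile, was 65.6 on the sham array, 64.9 on that of day 1 and 55.9 on that of day 7. The lower sum at day 7 came mostly from the neurofilament genes, with Nefl at -1.61, Nefm at -1.17 and Nefh at -2.30. The bright probe of Uchl1 (-0.32) also lowered the sum, while Snap25 (0.47), Stmn2 (0.20) and Slc17a6 (0.18) raised it. The other measured neuronal markers lay between -0.32 (Uchl1) and 0.47 at day 7, so the list did not fall as a whole. Of 10 oligodendrocyte markers, 1 was at least 2-fold lower at each time (Ermn at day 1, Mbp at day 7), beside the same background shares, and their summed level was 31.3, 27.4 and 23.0. The brightest probe of every gene on either list was well above background on all 3 arrays. The part of these cells in the lower Nfasc and Scn8a values was not tested. In tissue of this kind, fewer cells of a type and less RNA per cell cannot be told apart.

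The windows before the annotated starts of these 2 genes are shown because Nfasc and Scn8a were the members past 2-fold on the lower side at day 7. They are the 250 bases before the start in RefSeq's GRCr8 assembly, written 5′ to 3′ on the strand of the gene, with GC boxes (GGGCGG on either strand) in capitals. The table holds 2 starts for Nfasc, both on the minus strand. The window shown is chr13:46701165-46701414, and the other, at chr13:46627849-46628098, ends in a run of pyrimidines and CAG, the letters of a splice acceptor, and is not shown. For Scn8a it is chr7:133860977-133861226 on the plus strand.
Nfasc: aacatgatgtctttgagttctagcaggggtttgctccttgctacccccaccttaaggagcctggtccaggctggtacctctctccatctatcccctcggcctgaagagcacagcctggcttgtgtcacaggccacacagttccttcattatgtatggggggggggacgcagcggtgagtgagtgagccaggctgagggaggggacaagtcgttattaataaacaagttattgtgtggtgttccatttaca
Scn8a: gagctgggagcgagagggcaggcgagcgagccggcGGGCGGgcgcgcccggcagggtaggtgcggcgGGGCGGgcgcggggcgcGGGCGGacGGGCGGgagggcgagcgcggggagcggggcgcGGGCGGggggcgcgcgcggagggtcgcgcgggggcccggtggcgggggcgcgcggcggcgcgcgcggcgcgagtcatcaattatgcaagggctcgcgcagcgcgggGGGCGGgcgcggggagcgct
The Scn8a window held 6 GC boxes and was 86.0% G and C, whereas the Nfasc windows held none and were 52.8% and 52.0% G and C. Over the same 250 bases, 30.5% of 33469 windows in the table held a GC box, and the median share of G and C was 51.2%. Windows were found for 6 of the 9 members, 7 in all, and only that of Scn8a held a GC box. The Scn2b window among them ends, like the other one of Nfasc, in a run of pyrimidines and AG close to its end, so it too may lie before an inner exon. Whether transcription starts at these annotated ends in this tissue was not tested. None of the 7 held a TATA box (TATAAA, in 12.9% of all windows), a cyclic AMP response element (TGACGTCA, in 1.59%) or an AP-1 site (TGACTCA, in 4.05%), searched on both strands. Since the Nfasc windows held none of these 4 motifs, the search could not show a motif shared with Scn8a.

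Of the other brain alpha subunits, Scn1a was slightly lower and Scn2a slightly higher at day 7, both within 2-fold. Scn1a, the channel prominent in fast-spiking inhibitory neurons, read 13182 ± 1318 in sham, 11398 ± 1140 at day 1 and 9708 ± 971 at day 7. Its log2 folds were -0.09 and -0.44 (scanner error 0.20 each), and only the day 7 value exceeded its error. Scn2a is the channel of unmyelinated axons and immature nodes, and its brighter probe read 22679 ± 2268, 21941 ± 2194 and 31000 ± 3100 in the same order. The other Scn2a probe read 14564 ± 1457, 16463 ± 1646 and 23074 ± 2308. Both probes were highest at day 7, with log2 folds of 0.46 and 0.67, and lay closer together (0.21 apart) than the median pair of probes of a gene at day 7 (0.41). At day 1 they gave 0.07 and 0.30, and the first of these was below 0 (as low as -0.05) without scaling between arrays and with normexp.

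Scn3a, the alpha subunit that dominates in the embryonic brain and is known to return in injured sensory neurons, stood at the sham level at day 1 and above it at day 7. It read 586.8 ± 60.2 in sham, 507.9 ± 55.6 at day 1 and 1105 ± 113 at day 7, so the day 7 array alone was high. The log2 fold was -0.09 at day 1 and 0.92 at day 7 (1.89-fold higher, scanner error 0.21), just short of the 2-fold line. Between the days it was 1.01 (scanner error 0.22), just past the line, and it was 0.83 with normexp background correction and short of 1 under quantile normalization and cyclic loess too. Of 6142 named genes, 397 were at least as high at day 7 against day 1.

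Scn4a, the skeletal muscle channel, was near the detection limit throughout. It read 78.7 ± 15.9 in sham, 47.1 ± 22.9 at day 1 and 183.0 ± 31.2 at day 7. On the day 1 array it was not well above background. Its sham value was, but the lowest signal so classed was 66.9 in sham, against 109.0 at day 1 and 121.6 at day 7. At day 7 against sham the log2 fold was 1.22 (2.33-fold higher, scanner error 0.38), but it was 0.65 with normexp and also short of 2-fold under cyclic loess. Against day 1 only a bound could be given, at least 1.55-fold higher at day 7, which sets the day 7 value against the lowest signal well above background at day 1. Muscle genes were measured beside it. Of 6 measured skeletal muscle markers, 1 was at least 2-fold higher at each time (Tnni2), beside 8.26% of all named genes at day 1 and 11.1% at day 7, and the summed level of the 7 with a probe came to 0.69 for sham, 0.71 for day 1 and 0.81 for day 7. Of 6 heart and slow muscle markers, 3 were at least 2-fold higher at day 1 and 5 at day 7, beside those same shares, and their summed level was 0.43, 1.45 and 3.77. Most of the day 7 sum came from Tnni3 and Tnnt1. Actc1 was among those higher at day 1 (2.66), but its other probe was lower (-1.17). Acta1 and Tnni3, the first gene of each list, were well above background on all 3 arrays. Their log2 folds at day 7 against sham were -0.47 and 6.25. The part of muscle RNA in the Scn4a value was not tested.

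The beta subunits went opposite ways, and neither was past 2-fold. Scn2b, which is joined to the alpha subunit by a disulfide bond, read 5855 ± 586 in sham, 3720 ± 373 at day 1 and 3577 ± 359 at day 7. Both arrays after surgery were below sham and overlapped each other within their scanner errors. The log2 folds were -0.54 and -0.71 (scanner error 0.20 each). Scn3b, which binds the alpha subunit without such a bond, read 11415 ± 1142, 13332 ± 1333 and 17492 ± 1749. It was highest at day 7, with log2 folds of 0.34 and 0.62 (scanner error 0.20 each). The directions of both genes were the same under all 6 alternatives.

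**Figure D2:**
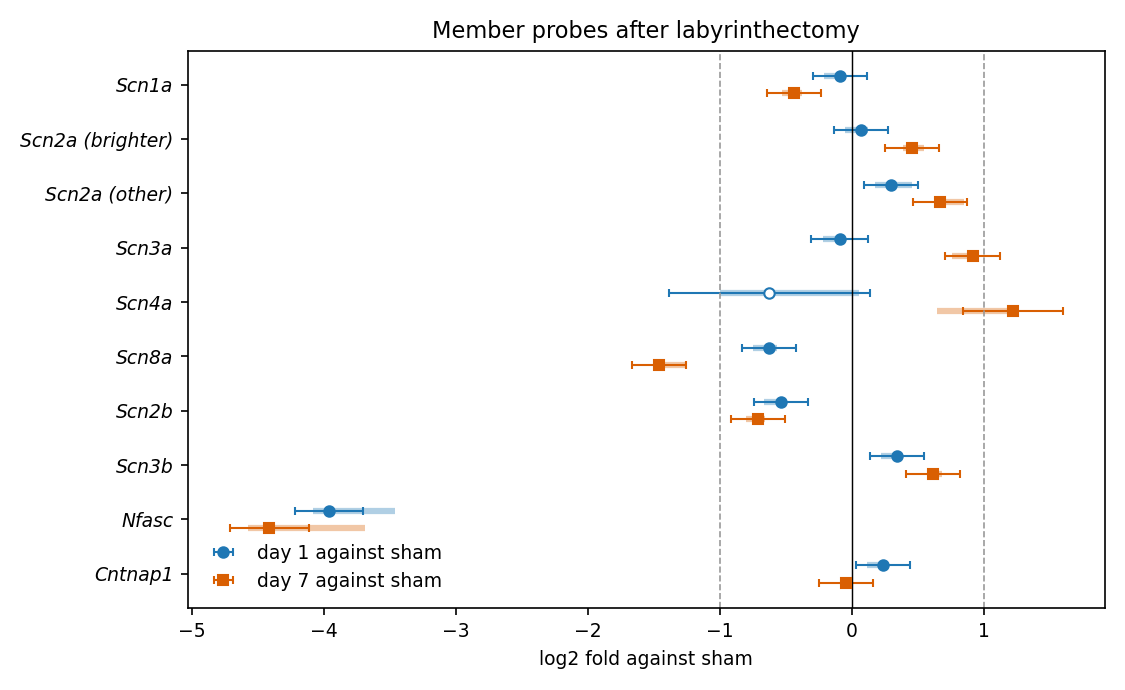
Log2 fold against sham (x axis) of each member probe (y axis) at day 1 (circles) and day 7 (squares). Thin bars are the scanner software's error, pale bands the range over 6 alternative settings, the open circle a probe not well above background at day 1, and dashed lines 2-fold. Nfasc at both days and Scn8a at day 7 lay beyond 2-fold under every setting drawn, whereas the band of Scn4a at day 7 crosses the line.

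Between the day 1 and day 7 arrays the members differed in both directions. Of 8 measured, 3 were higher at day 7 than at day 1 (Scn2a, Scn3a and Scn3b) and 5 lower (Scn1a, Scn8a, Scn2b, Nfasc and Cntnap1), and each kept its sign under the 6 alternatives. Scn8a was at -0.84 (scanner error 0.21), and Nfasc, already low at day 1, was at -0.45 (scanner error 0.34). Apart from Scn3a, all of these differences were short of 2-fold.

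**Figure D3:**
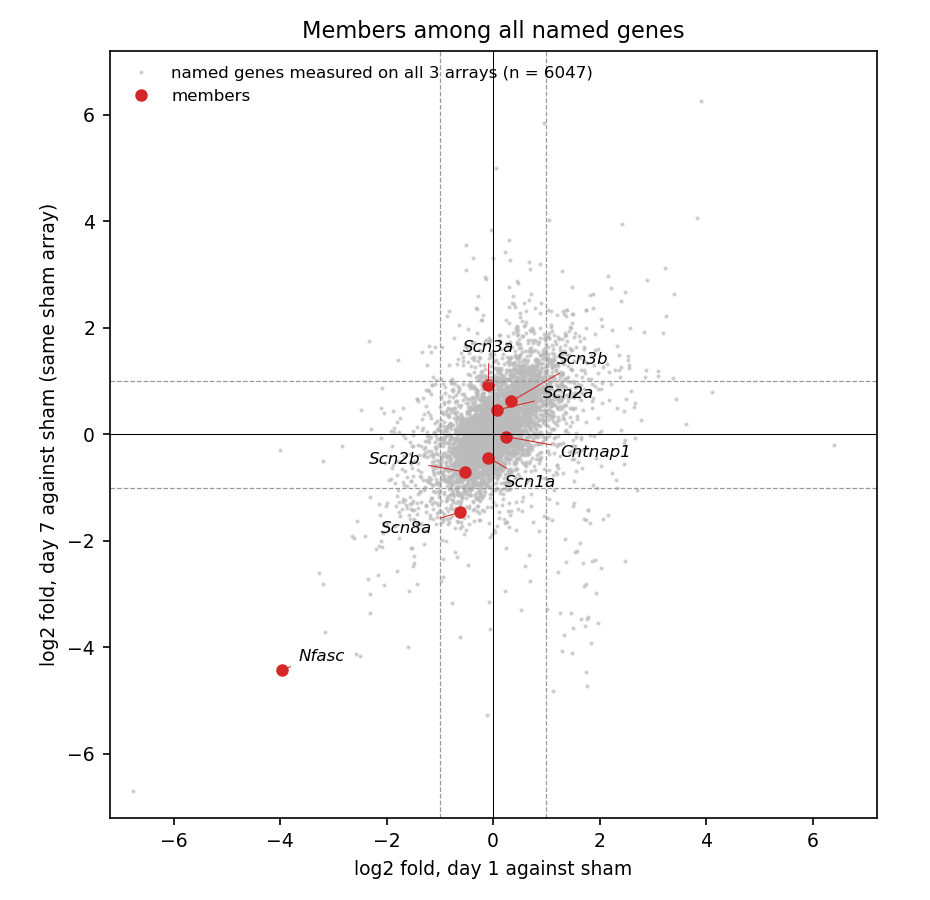
Log2 fold at day 1 (x axis) and day 7 (y axis) against the same sham array for the 6047 named genes measured on all 3 arrays (grey) and the 8 members among them (red), with dashed lines at 2-fold. Nfasc lies apart at the lower left, Scn8a is past 2-fold at day 7 only, and the other members are inside the cloud.

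The genes whose pair of folds lay nearest to a member past 2-fold were found by straight-line distance among the 6047 named genes measured on all 3 arrays. Nearest to Scn8a were Fcmr (0.02 log2 units away), Crybb3 (0.04) and Ndufs4 (0.09). Nothing lay close to Nfasc, and its nearest genes were Nr2c1 (1.06), Sec14l2 (1.41) and Ap1m1 (1.48). A pattern over 3 arrays with a shared sham array has only 2 free values.

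Other genes of sodium channels and of the node region came from lists of 32 genes, of which 22 had a named probe. At day 1 against sham 3 of 19 measured were past 2-fold higher (Scn9a, Cntn1 and Kcnab1) and 1 lower (Bcan). At day 7 against sham 0 of 18 were higher and 3 lower (Fgf14, Bcan and Kcnab2). Against day 1, the day 7 array had 1 of 18 higher (Gldn) and 3 lower (Fgf14, Hapln2 and Cntn1), and Gldn was short of 2-fold with normexp. Fgf11, for which only a bound against sham could be given, far on the lower side at both times, and Kcnab1 at day 7 are not among the measured genes of these counts and medians. The median log2 fold was -0.02, -0.34 and -0.25 in these comparisons, against 0.00, 0.05 and 0.04 over all named genes. The counts past 2-fold, 4 of 19, 3 of 18 and 4 of 18, are to be read beside the 12.6%, 16.9% and 11.9% of all named genes given above.

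Among the other alpha subunits, Scn9a, best known from sensory and sympathetic neurons, was higher on both arrays after surgery by both of its probes. The brighter probe read 1677, 3809 and 3152 in sham, at day 1 and at day 7, and the other 1034, 3785 and 2546. The log2 folds were 1.30 and 0.91 by the first and 1.99 and 1.30 by the second, and their directions were the same under all 6 alternatives. The pain-fibre channels Scn10a and Scn11a were not well above background on any array, and for these no fold is given. On the chromosome Scn3a and Scn2a are next to each other, and Scn1a and Scn9a are too, with 4 protein-coding genes between the pairs in GRCr8. These neighbours did not share a pattern, since at day 7 Scn1a was below sham and the other 3 above it.

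Scn4b, the beta subunit linked to fast repetitive firing, was lower at day 7 by both of its probes. It read 35347, 31167 and 17998 by its brighter probe, and 533.9, 538.9 and 407.5 by the other. Its day 7 log2 fold was -0.97 by the first and -0.39 by the second, both below 0 and short of 2-fold. Scn2b, its neighbour on the chromosome in GRCr8, was also below sham at day 7, and Scn3b was above.

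The fibroblast growth factor homologous factors bind the tail of the channel inside the cell and shape its inactivation. Fgf11 read 3860 ± 386 in sham and was not well above background on either array after surgery, so it was at least 32.6-fold lower at day 1 and at least 31.7-fold lower at day 7. Like Nfasc, it rested on 1 probe of 1 spot. Fgf14, whose product is concentrated at the initial segment, read 832.2, 737.5 and 217.0, and its log2 fold of -0.06 at day 1 gave way to -1.94 at day 7 (scanner error 0.27). Fgf12 and Fgf13 stayed within 0.19 log2 units of sham at both times.

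The other scaffold and adhesion genes of the node and initial segment varied, and by the brightest probe Bcan alone was past 2-fold against sham, except that Hapln2 reached 1.06 at day 1 with normexp. Ank3, which encodes ankyrin G, had log2 folds between -0.28 and 0.23 over its 3 probes and both days. Nrcam, the partner of neurofascin at the node, was at -0.10 and -0.33 by its brighter probe and at 0.85 and 0.27 by the other, so its direction depended on the probe. Kcnq3, a potassium channel that shares the ankyrin anchor, was at 0.01 (below 0 under quantile normalization and without scaling) and 0.11. Gldn, which encodes gliomedin, a node organizer of peripheral nerve, read 250.7, 144.3 and 334.9, with log2 folds of -0.68 and 0.42. The matrix of the node was less uniform. Bcan, which encodes brevican, was at -1.27 and -1.81 by its brighter probe, and at 0.48 and -0.65 by the other. Hapln2, a link protein of central nodes, was at 0.86 and -0.35 by its brighter probe and at 0.40 and 0.63 by the other, so the 2 probes disagreed in sign at day 7.

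At the paranode, Cntn1, which encodes the contactin that pairs with the Cntnap1 product, was above sham at day 1 and below it at day 7. It read 6393 ± 639.5 in sham, 17383 ± 1738.5 at day 1 and 3939 ± 395.2 at day 7, so the day 1 array was high. The log2 folds were 1.56 and -0.69 (scanner error 0.20 each), and no other probe of the gene was named. The paranodal scaffold Epb41l3 was at -0.06 and -0.62, and the spectrin Sptan1 at 0.06 (below 0 without scaling) and -0.12. Of the 3 measured paranode genes none was past 2-fold at day 7, although all 3 were below 0.

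At the juxtaparanode, the stretch under the myelin where potassium channels gather, the adhesion protein Cntn2 was at -0.52 and -0.77. Cntn2 lies next to Nfasc in GRCr8 with no protein-coding gene between them, and its difference was far smaller. The channel Kcna1 was at -0.33 and -0.46 by its brighter probe and at 0.22 and 0.00 by the other, whose sign at day 7 varied with the scaling, and Kcna2 was at 0.37 and 0.65. Kcnab2, a subunit of these channels, read 885.3, 432.6 and 312.8, with log2 folds of -0.91 and -1.50, the former past 2-fold (as low as -1.03) under quantile normalization, cyclic loess and no scaling. Kcnab1 read 217.7, 668.0 and 74.5 by its brighter probe, a log2 fold of 1.74 at day 1 and at least 1.79-fold lower at day 7. Its other probe was not well above background at either time after surgery and was at least 1.74-fold lower at day 1, so the 2 probes disagreed there.

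**Figure D4:**
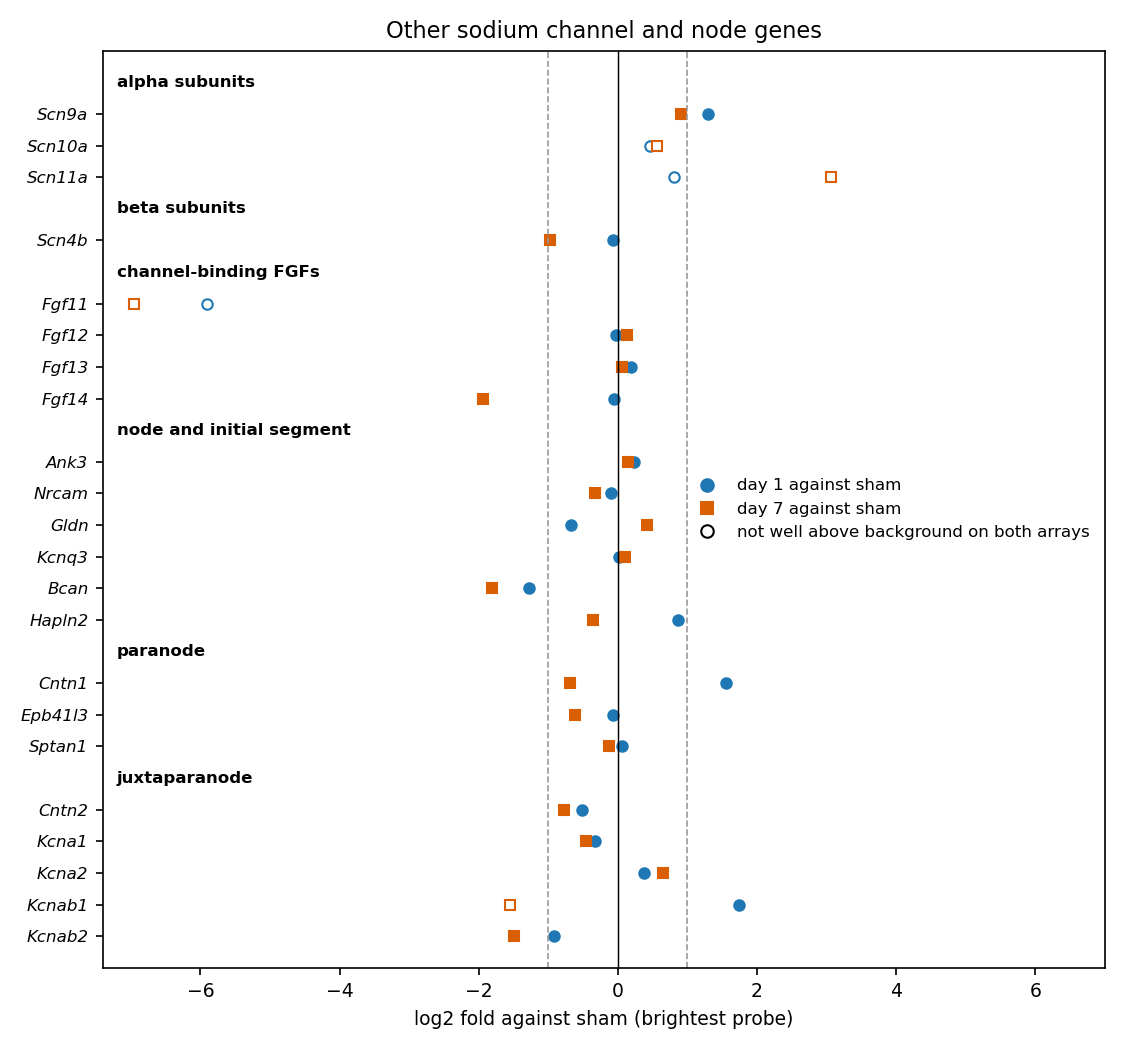
Log2 fold against sham (x axis) of 22 other sodium channel and node genes by their brightest probe (y axis, grouped by place or role) at day 1 (circles) and day 7 (squares), with dashed lines at 2-fold. Open symbols were not well above background on both arrays and give no measured fold, as for Fgf11. Scn9a, Cntn1 and Kcnab1 lie past 2-fold on the higher side at day 1, and Fgf14, Bcan and Kcnab2 on the lower side at day 7.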

How the data were processed

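Total RNA (1 µg per array, per the labels) was labelled with Cy3 and read from Agilent arrays with Feature Extraction 10.7.3.1, per the file headers. For each spot the deposited scanner files give a linear intensity from which the software had subtracted background, with its error and with flags for background, saturation and outliers, and arrays had not been scaled to each other. The authors' value table equalled that intensity within 0.1 percent for all 10 member probes on each array. From these, log2 intensity minus the array's 75th percentile of 43379 non-control spots was computed without spots flagged as outliers, and replicate spots were averaged. Between 76.9% and 81.3% of spots per array were well above background.

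RefSeq accessions were matched to a GRCr8 table, which named 10768 of 41012 probes. A gene was represented by its brightest probe over the 3 arrays. With 1 array per group no test was run, and 2-fold marks a difference. The rule for named genes took all members, the listed genes past 2-fold against sham with up to 6 others by role, the first gene of each marker list, and the 3 genes nearest to each member past 2-fold and measured on all arrays. The rest of the 22 listed genes with a probe, and the markers past 2-fold, were named after their values were seen. Some genes of the lists are not reported here and enter no list count. The members and lists were chosen with earlier results of these data known. limma 3.58.1 gave the quantile, cyclic loess and normexp (offset 50) alternatives. The counting was tested on simulated data. The number of arrays limits the precision.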

Additional observations from a re-analysis of the deposited data

Results flagged for a closer look

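For 3 genes outside the member list that were measured on all 3 arrays, the differences from sham at day 1 and day 7 had opposite signs, each larger than the scanner error. Whether the 2 times differ was not tested, since each time is 1 array, and both share the sham array. Cntn1 differed by -2.26 log2 units between day 7 and day 1 (1.56 and then -0.69 against sham). Hapln2 differed by -1.21 (0.86 and -0.35), and its other probe was above sham at both times. Gldn differed by 1.10 (-0.68 and 0.42), and by 0.81 with normexp. Its day 1 fold ran from -0.84 to -0.10 over the 6 alternatives, and the latter value is within its scanner error of 0.32. Kcnab1 also lay above sham at day 1 (1.74) and below it at day 7 (at least 1.79-fold lower), but its probe was not well above background at day 7. None of the 9 members met this condition.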

How the results depend on the processing

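Of 90 alternative values for the counts and medians, 79 were close to those reported, and of 738 probe folds 600 were, while none past 2-fold changed sign. At day 7 against sham Nfasc and Scn8a were past 2-fold under all 10 alternatives, and Scn4a was not under cyclic loess, normexp or with only brighter probes. For Nfasc and Scn8a only the changes of scaling and background correction could alter the fold. Each had 1 probe of 1 spot without flags and well above background on all arrays. The settings on dim, saturated and outlier spots, on brighter probes and on all probes of a gene therefore left their folds as they were. At day 7 against day 1 the number of members past 2-fold was 1 as reported, 0 under quantile normalization, cyclic loess, normexp and the filter to brighter probes, and 2 without a filter on dim probes. The median log2 fold of the members was -0.11 between the days without scaling and -0.44 at day 7 against sham with only brighter probes. The other genes past 2-fold at day 7 numbered 6 against sham and 7 against day 1 without the dim filter, and 1 and 2 with only brighter probes. The planned normexp on mean signals was not run because the files used here hold median signals, and the version on medians was chosen after seeing the data. No paired analysis was possible because each group has 1 array. Dim probes limit Scn4a most, and on the arrays after surgery also Nfasc.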
